A study of Mus musculus with 2 samples.

Results

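Among 20881 splenic CD8 T cell barcodes of mice given DHEA or oil, 400 carried at least 2 UMIs (unique molecular identifiers, counted RNA molecules) summed over Fcer1g, Tyrobp, Klrb1c and Zbtb16, genes associated with natural killer (NK) cells, NKT cells and myeloid cells. They were chosen by that sum alone from barcodes with 200 or more genes and a mitochondrial share below 10%, with or without UMIs of the CD8 chains Cd8a and Cd8b1. The rule kept 218 of 11671 cells in the DHEA library and 182 of 9210 in the CTRL library. They were then split by whether the CD3 chains Cd3d, Cd3e and Cd3g together had 0 UMIs or more, giving 7 DHEA and 9 CTRL cells without Cd3 UMIs (called Cd3-zero) and 211 DHEA and 173 CTRL cells with at least 1 (called Cd3-positive). The 4 genes chose these cells, so their own levels are given as a description, as are differences between members and the remaining cells. By their other genes, the name NK, NKT and myeloid cells held for a minority of them under the marker lists below, at 3 detected genes per list. That count depends on the number of genes needed, and the cells are therefore called by the rule.

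The study used wild-type C57BL/6 mice. The DHEA group received dehydroepiandrosterone, an androgen precursor used to model polycystic ovary syndrome in mice, by daily subcutaneous injection at 40 mg/kg in 20 µL sesame oil for 21 days, and the CTRL group received the same volume of oil on the same schedule. Spleen cells were freed of red cells, their CD8 T cells were taken out with magnetic beads and pooled, and each group gave 1 droplet library with 10x Genomics 3' v3.1 chemistry. The sources at hand do not give the number of animals pooled, their age or whether the beads bound the CD8 T cells or the others. With 1 library per group there is no replicate check and no test, and all intervals are 95% intervals that cover counting error only, exact except for Newcombe's intervals of differences between shares.

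Fcer1g encodes the Fc receptor gamma chain and Tyrobp encodes DAP12. Both are short membrane adapters whose ITAM motifs recruit the kinases Syk and Zap70 and carry the signal of activating receptors that have no signalling tail of their own. Klrb1c encodes NK1.1, the lectin-like receptor by which NK and NKT cells of C57BL/6 mice are stained. Zbtb16 encodes PLZF, the transcription factor that gives NKT cells, MAIT cells and some gamma-delta T cells their ready-made effector state. Lyz2 encodes lysozyme of monocytes, macrophages and neutrophils. Some CD8 T cells also take up NK receptors and these adapters, so the genes alone do not name a lineage.

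The libraries held 53020893 UMIs over 12128 barcodes (DHEA) and 51638782 over 9495 (CTRL), and the kept cells had medians of 4224 and 5530.5 UMIs. The Cd3-positive members were deeper than the remaining cells, at medians of 5350 UMIs in DHEA and 6819 in CTRL against 4190 and 5512.5 in the others. The libraries had 51 barcodes in common, among them 2 DHEA members and 1 CTRL member. Scrublet called 1 DHEA cell and 0 CTRL cells as doublets, too few for the caller to have worked. No doublet was removed, and the part of doublets in members with genes of several lineages was not tested.

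Members made up 1.87% (1.63 to 2.13) of DHEA cells and 1.98% (1.70 to 2.28) of CTRL cells, a difference of -0.108 percentage points (-0.490 to 0.264). Just inside the rule, with a sum of exactly 2 UMIs, stood 91 DHEA and 63 CTRL cells, and just outside it, with a sum of 1, stood 243 and 182. At the upper end 13 DHEA and 24 CTRL cells had 10 to 49 UMIs of the 4 genes, and 1 and 4 cells had 50 or more. The interval of the difference in share includes 0, whereas with Klrb1c left out of the sum the difference was -0.321 points (-0.647 to -0.00593), lower in DHEA. More of the CTRL members had high sums. CTRL members were also deeper, at a median of 6821.5 UMIs against 5336.5 in DHEA members, and the part of depth in these sums and shares was not tested. Cd3-zero cells were 3.21% of members in DHEA and 4.95% in CTRL. Of the remaining cells 293 of 11453 (2.56%) in DHEA and 81 of 9028 (0.897%) in CTRL also had no Cd3 UMI.

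CD8 transcripts were less frequent in members than in cells with none of the 4 genes, although the rule did not use them. A UMI of Cd8a or Cd8b1 was found in 94.4% of DHEA and 96.6% of CTRL cells with none of the 4 genes, in 77.4% and 74.2% of those with a sum of 1, in 49.5% and 55.6% at a sum of 2, and in 23.1% and 29.2% at 10 to 49. Between sums of 2 and 9 the CTRL share stayed in a narrow range, at 55.6%, 58.1% (3 to 4) and 54.2% (5 to 9), where the DHEA shares were 49.5%, 43.1% and 41.7%. Ikzf2, which encodes the transcription factor Helios of innate-like and agonist-selected T cells, was more frequent in members: 11.4% and 13.9% of cells with none of the 4 genes had a UMI of it, 33.3% and 38.5% at a sum of 1, and 60.4% and 71.4% at a sum of 2. Its highest shares were 70.8% in DHEA (5 to 9) and 83.7% in CTRL (3 to 4). At 10 to 49 the shares were 53.8% and 62.5%, and the 1 DHEA and 4 CTRL cells at 50 or more had none. Depth moved with the sum as well, from medians of 4186 UMIs (DHEA) and 5500.5 (CTRL) at a sum of 0 to 4975 and 6095 at a sum of 2, and its part in these shares was not tested.

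**Figure D1:**
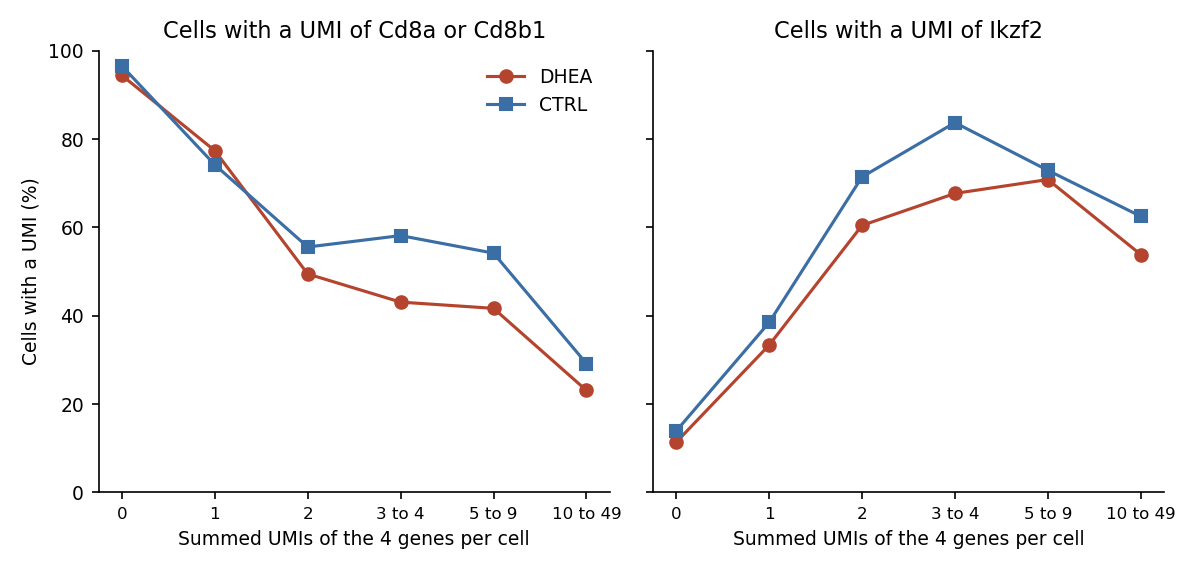
Share of cells with a UMI of Cd8a or Cd8b1 (left) and of Ikzf2 (right), in percent, against the summed UMIs of Fcer1g, Tyrobp, Klrb1c and Zbtb16 per cell, for DHEA (circles) and CTRL (squares). The CD8 share stands at 94.4% and 96.6% at a sum of 0 and at 23.1% and 29.2% at 10 to 49, whereas the Ikzf2 share stands at 11.4% and 13.9% at a sum of 0 and at 60.4% and 71.4% at a sum of 2.

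The members held most UMIs of the genes that chose them. Fcer1g (ENSMUSG00000058715) had 359 of its 439 UMIs in members in DHEA and 539 of 614 in CTRL, found in 107 and 100 members. Klrb1c (ENSMUSG00000030325) had 295 of 384 and 324 of 368 UMIs, in 123 and 97 members. Tyrobp (ENSMUSG00000030579) had 160 of 214 and 270 of 308, in 34 and 33 members. Cells outside the rule that carried a UMI of these genes numbered 80 in DHEA and 75 in CTRL for Fcer1g, 89 and 44 for Klrb1c, and 54 and 38 for Tyrobp.

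Zbtb16 (ENSMUSG00000066687) had 187 of 207 UMIs in 65 DHEA members and 150 of 175 in 54 CTRL members. Lyz2 (ENSMUSG00000069516) was no part of the sum. It had 55 of 61 UMIs in 7 DHEA members and 923 of 939 in 4 CTRL members, and 536 of the CTRL UMIs (57.1%) came from 1 cell. The level of Lyz2 in the CTRL library therefore rests on single cells, which are among the Cd3-zero cells.

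The 16 Cd3-zero cells were few enough to describe one by one. They ranged over 1008 to 9260 UMIs in DHEA and 2073 to 18982 in CTRL, and 6 of 7 DHEA and 7 of 9 CTRL cells had no CD8 UMI. A list of marker genes was counted as met when a cell had at least 3 of its genes. By that count the cells fell into NK-list cells (2 DHEA, 4 CTRL), a cell of the NKT and MAIT list with the interleukin-23 receptor Il23r (1 DHEA), cells with phagocyte and dendritic genes (1 DHEA, 3 CTRL), and cells with erythroid genes (1 and 1, the CTRL cell also meeting the list of haematopoietic progenitors). Among the other 3 cells (2 DHEA, 1 CTRL), a DHEA cell met only the list of CD8 T cells, which was left out of this sorting. The other DHEA cell and the CTRL cell met no list.

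Both DHEA cells of the NK list, which also met the list of NKT and MAIT cells, with 5329 and 4794 UMIs, had Ncr1, the activating receptor NKp46 that marks NK cells and some innate lymphoid cells, at 10 and 13 UMIs. They had Klrb1b at 8 and 9 UMIs and Klrk1, the receptor NKG2D, at 9 and 10. Fcer1g stood at 15 and 12 and Tyrobp at 8 and 3. Gzma, a granule protease of cytotoxic cells, and the Ly49 receptor genes Klra4, Klra8 and Klra9 had 0 UMIs in all 7 DHEA Cd3-zero cells. Reads of near-identical Klra and Klrb1 genes could be split or dropped in counting, so the values of single members of these families are uncertain. Trbc2, a constant region of the T cell receptor beta chain that is also transcribed in some cells without a complete receptor, had 4 and 5 UMIs in these cells.

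The 4 CTRL cells of the NK list, with 6940, 5017, 3469 and 2073 UMIs, had Ncr1 at 4, 5, 7 and 1 UMIs. In contrast to the DHEA cells all 4 had Gzma, at 31, 43, 40 and 17 UMIs. Klra4, the activating receptor Ly49D that signals through DAP12, had 0, 9, 6 and 3 UMIs. Tyrobp, its adapter, was present in all 4 at 13, 14, 9 and 10 UMIs. The cell with no Klra4 UMI was the only one of the 4 with Klrb1b (11 UMIs), and it also had 14 UMIs of Trbc2 and 11 of Klrc2, the activating receptor NKG2C.

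Nearly all Lyz2 UMIs of CTRL came from 2 of the phagocyte-gene cells. A cell of 10767 UMIs had 536 of Lyz2, 41 of Tyrobp and 33 of Chil3, a chitinase-like protein of inflammatory monocytes. A cell of 13493 UMIs had 383 of Lyz2, 39 of Tyrobp, 23 of Chil3, 21 of Fn1 and 6 of Csf1r, the receptor for the monocyte growth factor. Both met the monocyte list, at 0 UMIs of the CD3 and CD8 chains, and the list of type 1 dendritic cells with 5 genes each. The cell of 13493 UMIs also met the list of red pulp macrophages. The cell of 10767 UMIs had 2 UMIs of Trac, 1 of Trbc1 and 1 of Trbc2, constant regions of the T cell receptor. No DHEA Cd3-zero cell met the monocyte list.

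A DHEA cell of 9260 UMIs and a CTRL cell of 11114 UMIs also had dendritic cell genes, with few Lyz2 UMIs. The DHEA cell had 29 UMIs of Irf8, a transcription factor of dendritic cells, 19 of Tcf4, a regulator of plasmacytoid dendritic cells, 5 of Clec9a and 2 of Siglech, with 34 of Tyrobp and 11 of Lyz2. The CTRL cell had 13 UMIs of Cd209a, a lectin of dendritic cells, 11 of Tcf4 and 2 of Siglech, with 35 of Tyrobp and 3 of Lyz2. Of the antigen-presenting MHC class II genes, the DHEA cell had no UMI of Cd74, H2-Aa, H2-Ab1 or H2-Eb1, and the CTRL cell had 3 of Cd74 and 1 of H2-Ab1. H2-DMa had 17 UMIs in the DHEA cell and 13 in the CTRL cell, and H2-DMb1 had 7 and 9. Neither cell had a UMI of Xcr1. Each met the lists of type 1, type 2 and plasmacytoid dendritic cells together, and the CTRL cell met the monocyte list too, so no single type is named.

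The remaining Cd3-zero cells were each of their own kind. A DHEA cell of 6934 UMIs had 18 UMIs of Fcer1g and 0 of Tyrobp, with 7 of Il23r, a receptor of interleukin-17-producing lymphocytes, 12 of Tmem176b and 10 of Klrb1b. A DHEA cell of 4237 UMIs had 10 UMIs of Car1, a carbonic anhydrase of erythroid precursors. A CTRL cell of 18982 UMIs had 23 of Car1, 9 of Car2 and 3 of Klf1 from the erythroid list, and from the progenitor list, of which it had more genes, 17 of Angpt1, 2 of Prtn3, 2 of Meis1, 1 of Kit and 1 of Ctsg. It also had 65 UMIs of Stmn1 and 14 of Top2a, genes of dividing cells. The DHEA cell joined the members through 1 UMI each of Fcer1g and Zbtb16, and the CTRL cell through 4 UMIs of Zbtb16. The 3 cells that met none of these lists, with 1483 and 1008 UMIs in DHEA and 2960 in CTRL, had sums of 5, 2 and 2 UMIs of the rule genes. The cell of 1483 UMIs had 6 genes of the CD8 T cell list, among them Themis (3 UMIs), Cd8a (1) and Cd8b1 (1).

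**Figure D2:**
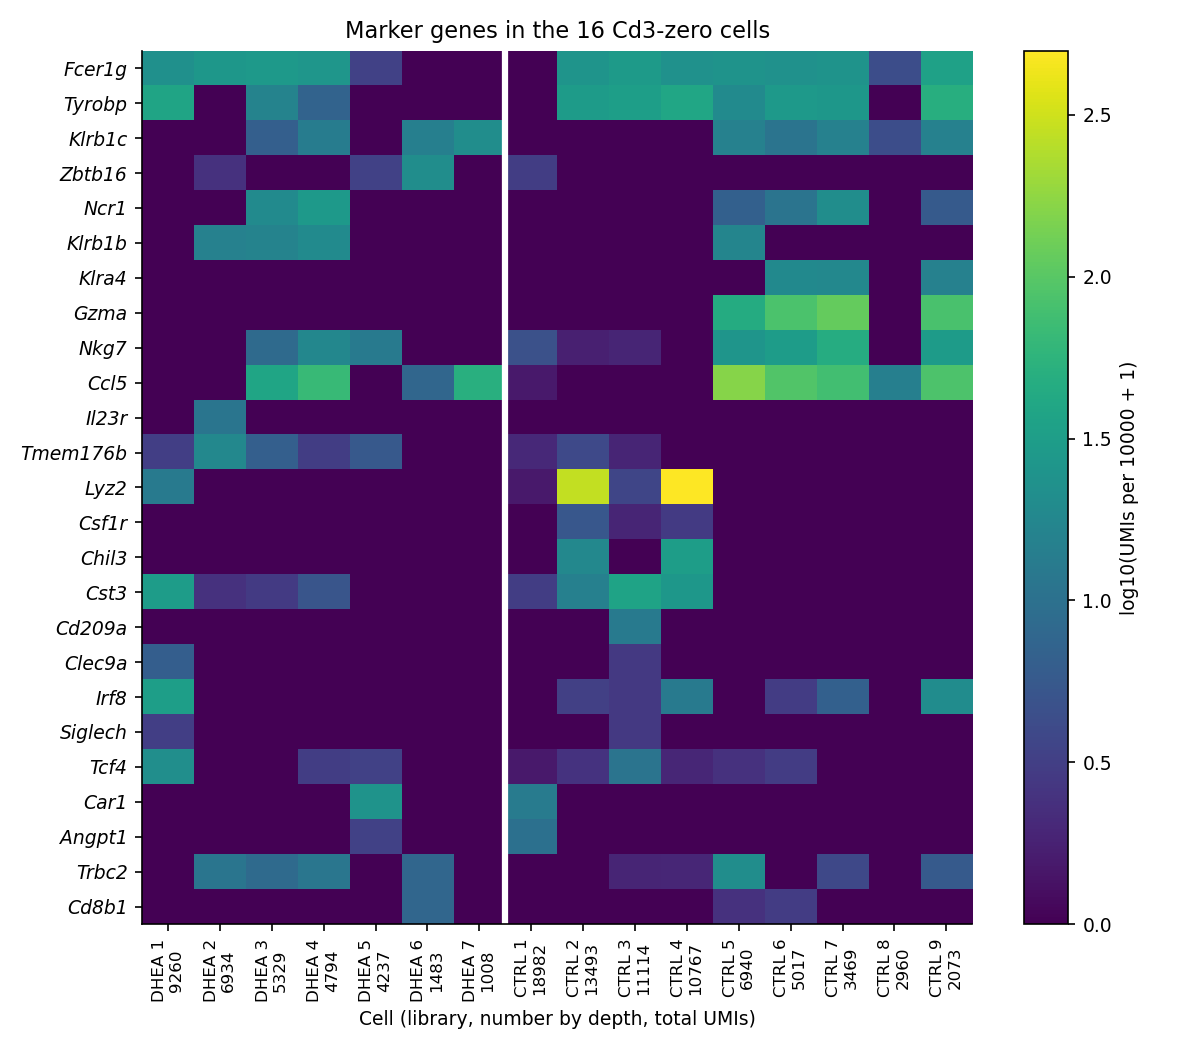
Marker genes (rows) in each of the 16 Cd3-zero members (columns, 7 DHEA cells left of 9 CTRL cells, with the cell's total UMIs under its name), as log10 of UMIs per 10000 plus 1. Gzma stands above 0 in CTRL cells 5, 6, 7 and 9 and in no DHEA cell, and Lyz2 is brightest in CTRL cells 2 and 4 (383 and 536 UMIs).

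Summed over both libraries, the genes furthest above the Cd3-positive members in the Cd3-zero cells were mostly those of the phagocyte-gene cells. By a rule of at least 100 UMIs in the Cd3-zero cells, the highest were Lyz2 (log2 ratio 8.83), Ifitm3, an interferon-induced membrane protein (7.45), Tyrobp (206 UMIs in Cd3-zero and 224 in Cd3-positive members), Plac8 (3.66), the protease inhibitor Cst3 (3.66), the lectin Lgals3 (3.60), the protease Ctss (3.59) and the lysosomal protein Psap (3.48). Gzma (2.84) and the peroxidase Gpx1 (2.73) followed. A single cell held 57.4% of the Lyz2 UMIs of the Cd3-zero members and 46.5% of those of Ifitm3, and all 155 Ifitm3 and 131 Gzma UMIs were in CTRL cells.

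Most of the 384 Cd3-positive members carried T cell genes that the split did not use. Trac, the constant region of the T cell receptor alpha chain, was found in 186 of 211 DHEA and 148 of 173 CTRL cells, at 837 CPM (UMIs per 1000000) in DHEA and 726 CPM in CTRL, against 840 and 695 CPM in the remaining cells. They were poor in CD8: 116 of 211 DHEA cells (55.0%, 48.0 to 61.8) and 81 of 173 CTRL cells (46.8%, 39.2 to 54.5) had no UMI of Cd8a or Cd8b1, a difference of 8.16 percentage points (-1.87 to 18.0). Among the remaining cells, which were shallower, the shares without a CD8 UMI were 5.94% and 3.90%. Cd4, the helper T cell co-receptor, had 1 UMI in the DHEA members and 0 in the CTRL members.

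The Cd3-positive members divided by which of the 4 genes they carried. The 4 groups used here, which exclude one another, were formed after the values were seen: cells with Zbtb16, cells with Tyrobp but no Zbtb16, cells with Fcer1g but neither of those, and cells with Klrb1c alone. They held 62, 29, 83 and 37 DHEA cells and 53, 22, 75 and 23 CTRL cells, in that order. The Zbtb16 group was 29.4% of the Cd3-positive members in DHEA and 30.6% in CTRL, a difference of -1.25 points (-10.5 to 7.84). The differences of the Tyrobp, Fcer1g and Klrb1c groups were 1.03 (-6.01 to 7.77), -4.02 (-13.8 to 5.81) and 4.24 points (-3.17 to 11.4), so no group's share differed beyond counting error.

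**Figure D3:**
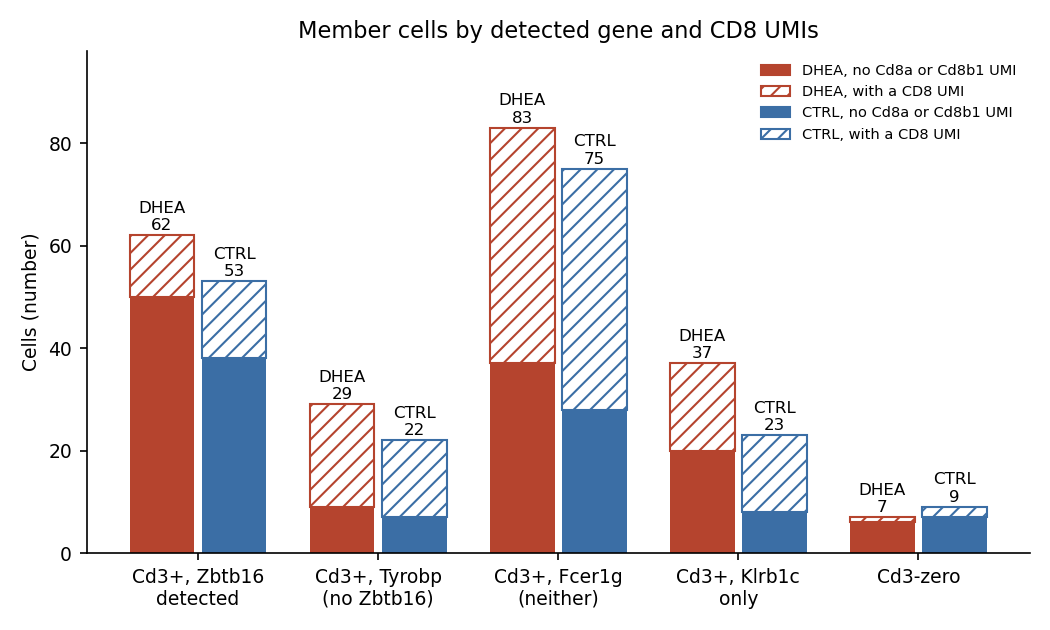
Number of member cells by detected gene, with DHEA left of CTRL in each pair of bars. Filled bars are cells with no UMI of Cd8a or Cd8b1 and hatched bars cells with one. The Zbtb16 group is mostly filled, at 50 of 62 DHEA and 38 of 53 CTRL cells, and the Tyrobp group mostly hatched, with 9 of 29 and 7 of 22 cells filled.

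The Zbtb16 group had the largest share of cells without a CD8 UMI among the 4 groups, and part of its cells carried Il23r. In DHEA 50 of 62 cells (80.6%) and in CTRL 38 of 53 (71.7%) had no CD8 UMI. Il23r, the interleukin-23 receptor, had 54 UMIs in 16 DHEA cells and 36 UMIs in 9 CTRL cells of the group. Cells with a UMI of it numbered 0 in the Tyrobp and Fcer1g groups of both libraries, 1 (DHEA) and 0 (CTRL) in the Klrb1c group, and 6 of 11453 and 4 of 9028 among the remaining cells. Il23r was therefore concentrated in the Zbtb16 group in both libraries.

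Other genes of innate T cells accompanied Zbtb16. Cxcr6, a chemokine receptor of tissue-homing and innate T cells, stood at 885 CPM in DHEA and 697 CPM in CTRL (57 of 62 and 48 of 53 cells), against 49.6 and 42.2 CPM in the remaining cells. Maf, a transcription factor of interleukin-producing T cells, stood at 449 CPM in DHEA and 347 CPM in CTRL, against 5.01 and 3.87 CPM. Il4, the cytokine that NKT cells release on activation, had 29 UMIs in 19 DHEA cells and 7 UMIs in 6 CTRL cells. The group was thus far above the remaining cells for both genes measured by level, and Il4 was found in more of its DHEA cells.

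Among genes picked after their values were seen, those that stood furthest above the remaining cells in both libraries were Blk, a Src family kinase (log2 ratio 9.42 in DHEA and 10.81 in CTRL), Il1r1, the interleukin-1 receptor (9.41 and 9.51), Il23r (9.18 and 8.90), Ltb4r1, a leukotriene receptor (7.82 and 7.73), and Adam12, a metalloprotease (7.68 and 8.19). Blk had 68 UMIs in 16 DHEA cells and 34 UMIs in 7 CTRL cells. Thinned to 1000 UMIs per cell, Blk was found in 14.5% of DHEA and 7.55% of CTRL cells of the group, against 0.02% and 0.02% of the remaining cells. Median depths were 5164.5 and 5691 UMIs in the group and 4190 and 5512.5 in the remaining cells, and the unthinned counts of the remaining cells with Blk were 8 and 3.

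T cell receptor genes divided the Zbtb16 group differently in the 2 libraries. Trdc, the constant region of the delta chain, had 123 UMIs in 10 DHEA cells and 4 UMIs in 2 CTRL cells, or 386 and 12.7 CPM, a log2 ratio of 4.92 (3.53 to 6.82). Scart1, a scavenger receptor of gamma-delta T cells, had 135 UMIs in 11 DHEA cells and 3 UMIs in 3 CTRL cells, a log2 ratio of 5.47 (3.89 to 7.77). No DHEA cell held more than 22 of the Trdc or 24 of the Scart1 UMIs, so the difference did not come from 1 cell.

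Among the 16 DHEA cells of the group with Il23r, 8 had at least 2 UMIs of Trdc, 9 had Scart1 and 8 had Trac. Among the 9 CTRL cells, 0 had 2 UMIs of Trdc, 1 had Scart1 and 8 had Trac. In the remaining cells Trdc had 706 UMIs in DHEA and 750 UMIs in CTRL (log2 ratio -0.13, -0.28 to 0.02). With 1 library each, treatment, animals and preparation cannot be told apart.

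The Tyrobp group carried NK receptor genes, and most of its cells had a CD8 UMI. In DHEA 9 of 29 cells (31.0%) and in CTRL 7 of 22 (31.8%) had none. Of its cells with both Fcer1g and Klrb1c, 2 DHEA and 4 CTRL cells had a CD8 UMI and 6 and 6 had none. Of those with Klrb1c but no Fcer1g, 7 and 2 had one and 1 and 0 had none. The DHEA cells of the neutrophil and monocyte lists, described below, were in this group, each with a Cd8b1 UMI. The genes furthest above the remaining cells in both libraries were Ly49 receptor genes: Klra4 (log2 ratio 6.08 in DHEA and 7.41 in CTRL), the activating receptor Ly49H gene Klra8 (5.73 and 7.89) and Klra9 (4.94 and 6.02). Few cells carried them: Klra4 had 16 UMIs in 1 DHEA cell and 31 UMIs in 3 CTRL cells, and Klra8 had 23 UMIs in 1 DHEA cell and 28 UMIs in 2 CTRL cells.

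More widespread in the Tyrobp group were Klra7, an inhibitory Ly49 receptor, with 44 UMIs in 10 DHEA and 50 UMIs in 12 CTRL cells, and Klrk1, with 55 UMIs in 14 and 56 UMIs in 10 cells. The chemokine Ccl5 stood at 11972 CPM in DHEA and 6242 CPM in CTRL, against 1702 and 744 CPM in the remaining cells. Gzma had 53 UMIs in 6 DHEA cells and 192 UMIs in 4 CTRL cells of the group. Ncr1 had 6 UMIs in 2 DHEA cells and 26 UMIs in 4 CTRL cells, and Il23r and Blk had 0 UMIs in both libraries.

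The Fcer1g group was the largest and was marked by Ikzf2, and it shared inhibitory Ly49 genes with the Tyrobp group. Ikzf2 had 401 UMIs in 71 of 83 DHEA cells and 600 UMIs in 66 of 75 CTRL cells, or 878 and 990 CPM, against 59.7 and 61.2 CPM in the remaining cells. Thinned to 1000 UMIs it was found in 43.2% of DHEA and 49.3% of CTRL cells of the group, against 4.42% and 4.84%. Klra1, the inhibitory receptor Ly49A, had 116 UMIs in 36 DHEA cells and 88 UMIs in 31 CTRL cells, and Klra7 203 UMIs in 49 and 217 UMIs in 43 cells. Klra1 stood above the remaining cells by log2 ratios of 5.39 (DHEA) and 5.09 (CTRL) in this group, and by 3.91 and 5.34 in the Tyrobp group. Helios and Ly49 transcripts thus occurred in a large part of the group in both libraries, whereas Gzma was found in 4 DHEA and 3 CTRL cells and Ncr1 in 0 and 1.

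Other genes picked after their values were seen stood above the remaining cells in the Fcer1g group: Myo1e, a myosin (log2 ratio 5.29 in DHEA and 4.54 in CTRL), Rbpms, an RNA-binding protein (4.59 and 4.21), Spry2, an inhibitor of receptor tyrosine kinase signals (4.12 and 4.95), and Lyn, a Src family kinase that phosphorylates ITAM motifs (3.89 and 4.01). Syk, the kinase that binds phosphorylated Fcer1g in myeloid cells, had 1 UMI in DHEA and 0 in CTRL in this group. Zap70, its T cell relative, stood at 131 CPM in DHEA and 89.1 CPM in CTRL, against 81.9 and 77.6 CPM in the remaining cells. Of the 2 kinases, the one typical of T cells was thus the one detected at a level.

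The Klrb1c group stood between the others. In DHEA 20 of 37 cells (54.1%) and in CTRL 8 of 23 (34.8%) had no CD8 UMI. Id2, a regulator of innate and effector lymphocytes, stood at 1207 CPM in DHEA and 896 CPM in CTRL, against 116 and 105 CPM in the remaining cells, and Klrc1, the inhibitory receptor NKG2A, stood above the remaining cells by log2 ratios of 3.59 and 5.06. Gzma had 111 UMIs in 7 DHEA cells, 68 of them in 1 cell, and 0 UMIs in the 23 CTRL cells. Ifng, the cytokine interferon gamma, had 21 UMIs in 11 DHEA cells and 64 UMIs in 6 CTRL cells, of which 56 were in 1 cell.

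**Figure D4:**
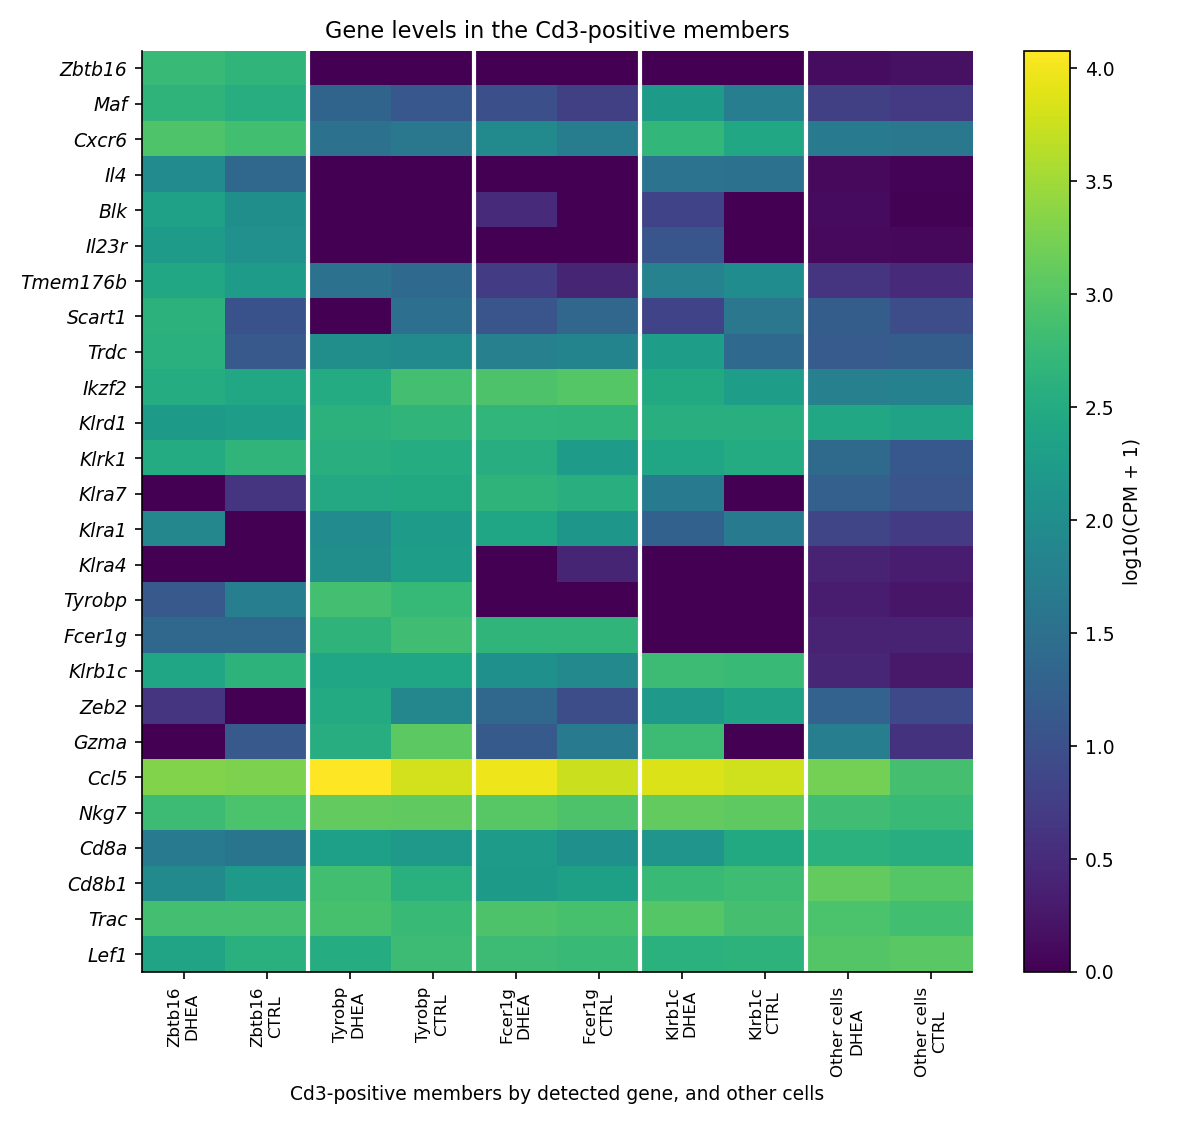
Levels of genes (rows) in the Cd3-positive members by detected gene and in the remaining cells (columns, DHEA left of CTRL), as log10 of CPM plus 1. Zbtb16, Tyrobp, Fcer1g and Klrb1c defined the groups. Blk and Il23r are brightest in both Zbtb16 columns, Ikzf2 in the Fcer1g columns (878 and 990 CPM), and Scart1 and Trdc in the Zbtb16 column of DHEA (424 and 386 CPM).

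The marker lists gave the label a mixed answer. The list of invariant NKT and MAIT cells, which holds none of the 4 rule genes, was met by 39 DHEA members and 20 CTRL members, and by 17 of 11453 and 10 of 9028 remaining cells. Cxcr6 was found in 38 of the 39 DHEA and 19 of the 20 CTRL cells, Tmem176b in 28 and 16, and Il23r in 18 and 9. Of the receptor segments that define these cells, Trav11 was found in 4 of the 39 DHEA and 2 of the 20 CTRL cells, Traj18 in 5 and 0, and Trav1 and Traj33, the segments of MAIT cells, in 0 and 0. The libraries read transcripts from the 3' end, so the segments near the other end are seldom read, and these counts do not exclude invariant receptors.

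The gamma-delta T cell list was met by 32 DHEA and 29 CTRL members, all Cd3-positive, and by 78 and 80 remaining cells. In the DHEA cells Trdc was found in 20 of 32 and in the CTRL cells in 8 of 29, and 11 DHEA and 7 CTRL members met the gamma-delta and the NKT lists together. The NK list was met by 9 DHEA and 12 CTRL members, 7 and 8 of them Cd3-positive, and by 20 and 7 remaining cells. The NK list was thus met by few members. The lists of B cells, stromal cells, megakaryocytes, basophils and innate lymphoid cells of types 2 and 3 were met by 0 members. In all 75 DHEA members (34.4%) and 59 CTRL members (32.4%) met any list other than that of CD8 T cells, against 1.15% and 1.33% of the remaining cells.

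The few Cd3-positive members that met the monocyte or the neutrophil list were all from the DHEA library. A cell of 4302 UMIs, with 1 Cd3 and 1 Cd8b1 UMI, had 253 UMIs of S100a9, 201 of S100a8 and 27 of Csf3r, the subunits of the neutrophil protein calprotectin and the receptor of the neutrophil growth factor. It held 98.1% of the S100a9 and 88.9% of the Cxcl2 UMIs of the whole library, and 201 of its 205 S100a8 UMIs. A single Cd3 UMI placed this cell among the Cd3-positive members.

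A further 4 DHEA cells met the monocyte list, with 4330, 3439, 3174 and 2611 UMIs. They had Lyz2 at 9, 9, 13 and 6 UMIs beside 8, 7, 7 and 4 Cd3 UMIs and 7, 11, 4 and 1 UMIs of Cd8b1. Each therefore carried transcripts of a phagocyte and of a CD8 T cell. Summed over its 13 genes, the monocyte list stood at 89.7 CPM in DHEA and 34.6 CPM in CTRL Cd3-positive members, against 18.3 and 29.5 CPM in the remaining cells. Ms4a6c made up 890 of the 939 list UMIs of the remaining DHEA cells and 1425 of 1471 in CTRL. All 42 list UMIs of the CTRL Cd3-positive members were of Ms4a6c, whose log2 ratio in Cd3-positive members was -0.01. Of the 99 in DHEA, 44 were of Lyz2. The sums are therefore no measure of monocyte transcripts alone. Lyz2 had 6 UMIs in 6 of the 11453 remaining DHEA cells and 16 UMIs in 16 of the 9028 remaining CTRL cells, at most 1 UMI in any of them.

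Single cells held most UMIs of some genes in both libraries. Of 13338 DHEA genes with at least 20 UMIs, 13 had over 50% of them in 1 cell, and of 13432 CTRL genes, 18 did. Members, 1.87% and 1.98% of the cells, were the holder for 7 of the 13 DHEA genes and 7 of the 18 CTRL genes, through 2 cells in each library. In DHEA they included Csf3r (93.1%), Hp, the haptoglobin gene (87.5%), and Ccl6 (54.1%). In CTRL the genes held by the 2 phagocyte-gene cells included Mgst1 (65.2%), Lyz2 (57.1%), Ccl6 (57.0%), Hp (56.5%), Chil3 (55.0%) and F13a1 (51.7%).

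Outside the members, the holders of the other genes included a CTRL cell with 97 of 130 Ifitm1 UMIs (74.6%) and one with 326 of 606 Car1 UMIs (53.8%). The library-wide values of S100a8 and S100a9 in DHEA and of Lyz2 and Chil3 in CTRL are thus mostly values of 1 or 2 cells.

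Within the Cd3-zero cells, DHEA over CTRL compares 7 cells with 9, and those cells were of several kinds. A gene was measured when the libraries together had 30 UMIs of it. Of 511 measured genes, 72 (14.1%) were higher in DHEA by 1.5-fold or more and 110 (21.5%) were lower by as much. The lowest were Lyz2, with 11 UMIs in DHEA and 923 in CTRL (log2 ratio -5.21, -6.22 to -4.37), Ifitm3, with 0 and 155, Gzma, with 0 and 131, and Ccl6, with 0 and 74. The highest were Gem, a small GTPase induced on activation, with 49 UMIs in 4 DHEA cells and 7 UMIs in 5 CTRL cells (3.99, 2.84 to 5.37), and Il7r, the interleukin-7 receptor, with 27 UMIs in 4 cells and 5 UMIs in 3 cells (3.61, 2.21 to 5.34). Both CTRL cells rich in Lyz2 held 72 and 55 of the Ifitm3 UMIs and all Ccl6 UMIs, and the 4 CTRL NK-list cells held all Gzma UMIs.

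A single cell decided some of these values. Ccl4, a chemokine of activated NK and T cells, had 33 UMIs in DHEA and 15 in CTRL (log2 ratio 2.32), but 31 of the 33 were in 1 DHEA cell, and without the richest cell of each library the ratio was -0.52 (-3.82 to 1.88). Klrb1b had 27 UMIs in 3 DHEA cells and 11 UMIs in 1 CTRL cell (2.47, 1.42 to 3.63). Ncr1 had 23 UMIs in 2 DHEA cells and 17 UMIs in 4 CTRL cells (1.61, 0.65 to 2.61).

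Within the Cd3-positive members, 7574 genes were measured, of which 447 (5.9%) were higher in DHEA by 1.5-fold or more and 560 (7.39%) were lower by as much. In the remaining cells 604 (4.39%) and 708 (5.15%) of 13754 genes were so. The median log2 ratios were -0.01 and -0.00. The shares and the median of the Cd3-positive members are the background for the counts of list genes below. The shares past 1.5-fold were somewhat above those of the remaining cells, from far fewer UMIs (1103305 in DHEA and 1215033 in CTRL).

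Genes of gamma-delta T cells were higher in the DHEA library. All 6 measured genes of the gamma-delta list had positive log2 ratios, 3 of them past 1.5-fold, with a list median of 0.64. Trdc had 199 UMIs in 23 DHEA cells and 63 UMIs in 10 CTRL cells (1.80, 1.38 to 2.23), Scart1 had 141 UMIs in 13 cells and 26 UMIs in 10 cells (2.58, 1.97 to 3.24), and Trgc1, a gamma chain constant region, had 173 UMIs in 49 cells and 91 UMIs in 42 cells (1.07, 0.69 to 1.45). Without the Zbtb16 group the log2 ratio of Trdc was 0.56, and in members with a CD8 UMI it was 0.32. In the remaining cells the ratios of Trdc, Scart1 and Trgc1 were -0.13, 0.87 and 0.41.

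Of 12 genes of the NKT and MAIT list, 6 were measured and all 6 were at least 1.5-fold higher in DHEA, with a median of 0.65. None of the 6 was a receptor segment. As 11 DHEA and 7 CTRL members met this list and the gamma-delta list together, the 2 lists do not give separate results. Il4 had 35 UMIs in 22 DHEA cells and 11 UMIs in 8 CTRL cells (1.81, 0.80 to 2.94), Il23r 56 UMIs in 17 and 36 UMIs in 9 cells (0.78, 0.15 to 1.42), and Cxcr6 413 UMIs in 110 and 292 UMIs in 76 cells (0.64, 0.42 to 0.86). In the wider PLZF list 14 of 19 measured genes were higher, 3 of them by 1.5-fold, against 5.9% of all measured genes. The list median was 0.30, and the 14 include the rule gene Zbtb16 (0.46), which chose the cells. Il4 was also higher in the remaining DHEA cells (1.87), from 15 and 4 UMIs. Maf, past 1.5-fold at 0.70 (0.36 to 1.05), stood at 0.37 in the remaining cells.

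Several NK genes were lower in DHEA, each from few cells. Of the NK list's 10 measured genes 4 were higher, none by 1.5-fold, and 4 were lower by at least 1.5-fold: Klrb1b with 4 UMIs in 3 DHEA cells and 36 UMIs in 7 CTRL cells (-3.03, -4.98 to -1.55), Ncr1 with 6 UMIs in 2 and 32 UMIs in 6 cells (-2.28, -3.82 to -0.998), Klri2 with 10 UMIs in 4 and 25 UMIs in 10 cells (-1.18, -2.40 to -0.07), and Klra4 with 16 UMIs in 1 and 32 UMIs in 4 cells (-0.86, -1.83 to 0.05). Among 6 measured receptors that pair with Fcer1g or Tyrobp, 3 were higher and 3 lower, with a median of -0.04, counting the rule gene Klrb1c (0.05). Among 12 measured ITAM adapters and kinases 10 were higher, 1 of them (Lyn, 0.67) by 1.5-fold, against 5.9% of all measured genes. The 12 include the rule genes Tyrobp (0.22) and Fcer1g (-0.34). Of the 8 measured inhibitory NK receptors, Klra1 was highest at 0.49 (0.14 to 0.84), and Klrb1b was the one past 1.5-fold.

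Cytotoxic genes were split. Of 12 measured granule genes 6 were higher and 6 lower in DHEA, with a median of 0.00. Gzmb, a granule protease, had 60 UMIs in 24 DHEA cells and 33 UMIs in 12 CTRL cells (1.00, 0.37 to 1.66), and Ccl5 had 8104 and 5876 UMIs (0.60, 0.55 to 0.65), against ratios of 4.91 and 1.19 in the remaining cells. Gzma had 170 UMIs in 17 DHEA cells and 224 UMIs in 9 CTRL cells (-0.26, -0.56 to 0.04). Its sign differed by CD8: 35 and 162 UMIs in members with no CD8 UMI (-2.40), and 135 and 62 UMIs in members with one (1.53, 1.08 to 1.98). Single cells held 68 of the 135 DHEA and 54 of the 62 CTRL Gzma UMIs of the CD8 members, and the ratio there was 0.53 (0.01 to 1.05) without the DHEA cell, 4.47 without the CTRL cell and 3.47 without both. Of the Gzma UMIs in members with no CD8 UMI, 29 of 35 and 81 of 162 were in 1 cell each, and the ratio was -4.93 without the DHEA cell, -1.42 without the CTRL cell and -3.95 without both. In the remaining cells Gzma stood at 54.1 CPM in DHEA and 2.96 CPM in CTRL.

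Of 10 measured cytokine genes 9 were higher, 5 of them by 1.5-fold, with a median of 0.57. Ccl4 had 163 UMIs in 50 DHEA cells and 102 UMIs in 26 CTRL cells (0.82, 0.45 to 1.19). Csf2, the growth factor GM-CSF, had 29 UMIs in 9 cells and 7 UMIs in 4 cells (2.19, 0.97 to 3.63), with 21 of the 29 in 1 cell, and without the richest cells its ratio was 1.14 (-0.76 to 3.32). Cxcl2, with 34 UMIs in 2 DHEA cells and 0 in CTRL, lay almost wholly in the neutrophil-list cell. For Ccl4 the richest DHEA cell held 16 of the 163 UMIs.

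Cell cycle genes were lower in DHEA. Of 9 measured genes 8 were lower by at least 1.5-fold, with a median of -1.74. Stmn1, a regulator of microtubules in dividing cells, had 34 UMIs in 13 DHEA cells and 235 UMIs in 22 CTRL cells (-2.65, -3.21 to -2.13), and Pclaf, a DNA replication factor, 2 UMIs in 2 cells and 78 UMIs in 5 cells (-5.15, -8.22 to -3.24). All 78 Pclaf UMIs and 214 of the Stmn1 UMIs of CTRL were in the Fcer1g group. With the deepest 5% of cells of each library left out, the log2 ratio of Stmn1 was 1.13, and in members with a sum of at least 3 that of Top2a was 0.22 in place of -1.74. The ratio of Stmn1 was 0.05 in the remaining cells.

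The genes with the highest ratios in the Cd3-positive members were each held by 1 to 7 DHEA cells. S100a9 and S100a8, with 253 and 201 UMIs in 1 DHEA cell, and Slpi, a protease inhibitor with 35 UMIs in 4 DHEA cells and 1 UMI in CTRL, came from the neutrophil-list cell to the extent of 253, 201 and 32 UMIs. Lyz2, with 44 UMIs in 6 DHEA cells, had 0 in CTRL, a log2 ratio of at least 4.01 with CTRL put at a floor of 3 UMIs. All 6 of its cells were in the Tyrobp group. Stmn2, a relative of Stmn1 known from neurons, had 43 UMIs in 7 DHEA cells and 0 in CTRL, at least 3.98, and all 7 cells were in the Zbtb16 group with no CD8 UMI. In the remaining cells Stmn2 had 9 UMIs in 8 DHEA cells and 0 in CTRL.

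The genes with the lowest ratios were held by 5 to 27 CTRL cells. Hdac9, a histone deacetylase, had 6 UMIs in 4 DHEA cells and 90 UMIs in 24 CTRL cells (-3.77, -5.25 to -2.59), of which 3 UMIs in 3 cells and 70 UMIs in 15 cells were in the Fcer1g group. Hdac9 stood at 14.5 CPM in DHEA and 14.2 CPM in CTRL in the remaining cells. Eps8l1, an actin regulator, had 4 UMIs in 4 DHEA cells and 35 UMIs in 27 CTRL cells (-2.99, -4.94 to -1.51). Nrgn, a calmodulin-binding protein, had 2 UMIs in 1 DHEA cell and 45 UMIs in 11 CTRL cells (-4.35, -7.44 to -2.42). Rrm2, a subunit of the enzyme that makes deoxyribonucleotides, had 3 UMIs in 3 DHEA cells and 34 UMIs in 5 CTRL cells (-3.36), of which 15 were in 1 cell, and 31 of the 78 CTRL UMIs of Pclaf were in 1 cell.

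**Figure D5:**
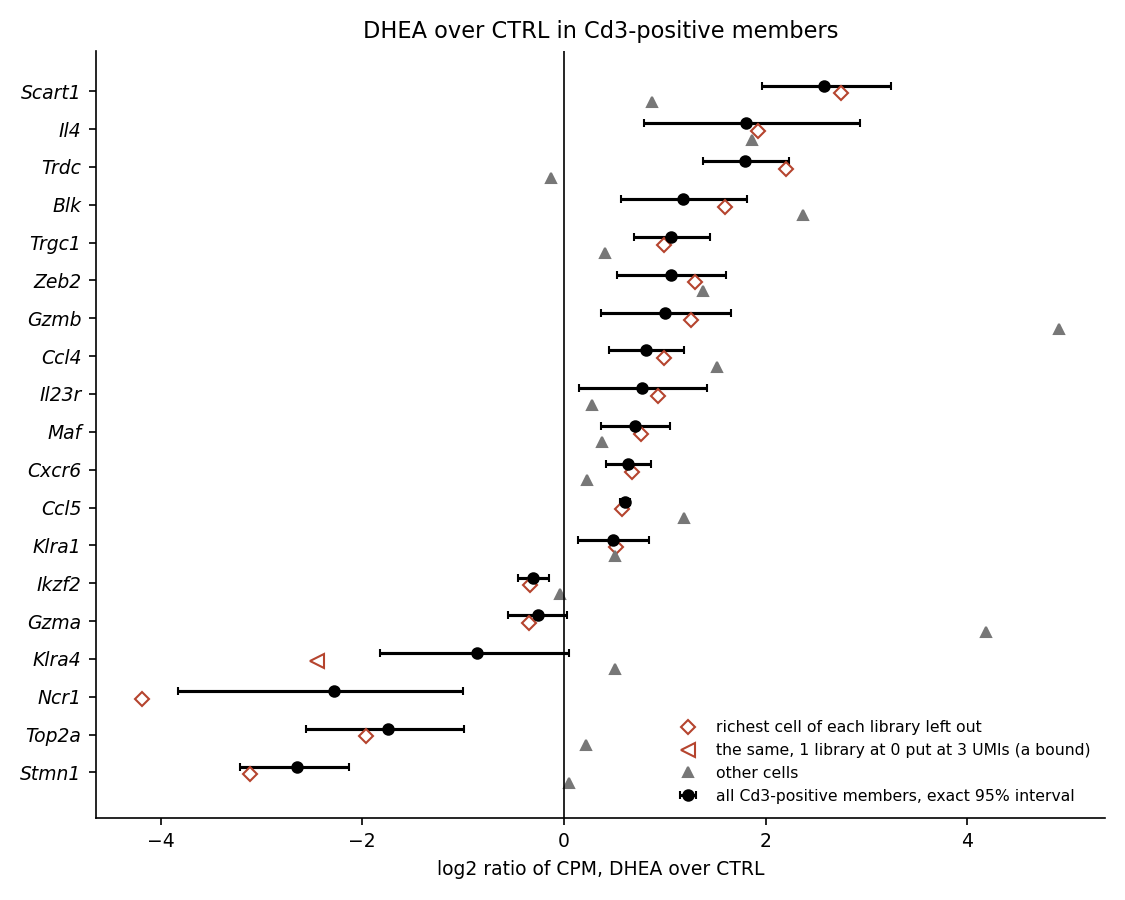
Log2 ratio of CPM, DHEA over CTRL, for genes of the lists and Blk in the Cd3-positive members (black circles, bars exact 95% intervals), without the cell that holds most UMIs of the gene in each library (open symbols, a left-pointing triangle where a library was then at 0 and put at 3 UMIs), and in the remaining cells (grey triangles). Scart1 and Trdc stand at 2.58 and 1.80 in the members and at 0.87 and -0.13 in the remaining cells, and Gzma at -0.26 and 4.19.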

How the data were processed

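The authors deposited raw UMI counts per gene and barcode for 2 libraries, and per the file headers the software was Cell Ranger 8.0.1. Seurat 4.3.0 and mm39 stand, without a role, in the submitters' processing notes. The matrices hold 33696 genes, and the filters removed 457 DHEA and 285 CTRL barcodes, 2 and 2 of which met the gene rule. The members and gene lists were chosen with earlier results of these data known. Counts were summed per library and cell group and scaled to CPM. Genes with at least 30 UMIs were measured, 1.5-fold was the rule of size, and a library at 0 was put at 3 UMIs, with no ratio where both had 3 or fewer. Intervals were Clopper-Pearson (shares), Newcombe (differences), Poisson (CPM) and exact binomial (log2 ratios). A marker list needed 3 detected genes. The steps were tested on simulated counts. Named genes were the rule genes, list members, the 6 highest and 6 lowest ratios per split, the 10 highest of Cd3-zero over Cd3-positive and the 10 most concentrated genes per library. Ranked choices left out immunoglobulin, receptor segment, haemoglobin, mitochondrial, ribosomal, sex-linked and unnamed genes. Genes picked after their values were seen are named as such. Some genes are not reported here. Of the list symbols, 4 were matched by Ensembl ID. Alternatives used edgeR 4.0.16 TMM factors, median-of-ratios factors, other limits and left-out cells. Tools were Python 3.11.15, numpy 2.4.6, scipy 1.17.1, pandas 2.3.3, scanpy 1.11.5 (Scrublet) and R 4.3.3.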

Additional observations from a re-analysis of the deposited data

Results flagged for a closer look

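For 5 genes the Cd3-zero and the Cd3-positive members moved in opposite directions by at least 1.5-fold, DHEA over CTRL, with intervals that exclude no difference or with a library at 0. The differences between the 2 kinds of member were not tested, and the Cd3-zero values rest on 7 DHEA and 9 CTRL cells. Lyz2 had a log2 ratio of -5.21 in Cd3-zero and at least 4.01 in Cd3-positive members. Klrb1b stood at 2.47 and -3.03, and Ncr1 at 1.61 and -2.28. Irf8 stood at 1.39, with all 29 DHEA UMIs in 1 Cd3-zero cell, and -1.16, and Ccl5 at -0.67 and 0.60. With Trac, Trbc1 and Trbc2 added to the Cd3 genes that split the members, Lyz2 stood at -3.14 in the members with a receptor UMI. These then included the CTRL cell with 536 Lyz2 UMIs, which had 2 UMIs of Trac.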

How the results depend on the processing

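No paired analysis was possible because each group has 1 library. The difference in the share of members lay between -0.321 points without Klrb1c in the sum, the 1 alternative whose interval (-0.647 to -0.00593) excludes 0, and 0.104 without the deepest 5% of cells, and that in the Cd3-zero share of members between -2.79 and -0.34, with 0 inside each interval. Adding Trac, Trbc1 and Trbc2 to the split left 2 DHEA and 3 CTRL Cd3-zero cells. In Cd3-zero members the counts of genes higher and lower were 598 and 624 at 10 UMIs per gene, 8 and 17 at 100 UMIs, and 41 and 39 with receptor genes in the split, and 31 were lower without the deepest 5% of cells. In Cd3-positive members they were 957 and 1125 at 10 UMIs, 80 and 101 at 100 UMIs, and 190 and 213 when members were thinned to 1000 UMIs, an alternative chosen after seeing the data. Fewer or more genes were measured at these limits. Members that met a list numbered 132 in DHEA and 111 in CTRL with 2 markers, and 37 and 35 with 4. Single genes past 1.5-fold that changed sign were Ccl4 in Cd3-zero members (-0.52 without the richest cell) and, in Cd3-positive members, Top2a (0.22 at a sum of at least 3), Stmn1 (1.13 without the deepest 5%), Lyz2 (-3.14 with receptor genes in the split) and Mki67 (1.13 by the mean of single-cell CPM). With alternatives chosen after seeing the data, S100a4 (0.76 in all Cd3-positive members) stood at -0.25 in members with a CD8 UMI and -0.76 without the Zbtb16 group, and Zeb2 (1.06 in all) at -0.000309 in members with no CD8 UMI. Gzma, under 1.5-fold at -0.26, stood at 1.53 in members with a CD8 UMI, also an alternative chosen after seeing the data, as were those without its richest cells, and 16 further values of Fcer1g, Ifng, Xcl1, Cd8a, Cd8b1, Klrk1 and Klra7, each under 1.5-fold as reported, changed sign. For Lyz2, the CTRL cell with 536 of its UMIs moved to the members with a receptor UMI. Why these values changed was otherwise not tested. Of all other values of single genes and lists, 567 moved by less than counting error and 94 by more, with the same sign. The Cd3-zero values rest on 33045 DHEA and 74815 CTRL UMIs.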
